A study of Mus musculus with 104 samples.

Results

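The cytosolic heat shock genes described here are 10 chaperone genes and their co-chaperones, named by symbol: Hspa1a, Hspa1b, Hspa8, Hsph1, Hsp90aa1, Hsp90ab1, Dnajb1, Dnaja1, Hspb1 and Hspe1. The 10 were taken from 24060 RefSeq genes with read counts, and all 10 were among the 15723 genes that passed the filter on low counts. Membership went by symbol and no cut on a measured value was applied, but earlier results of these data were known when the members were chosen. The set name fits 9 of the 10, since the protein of Hspe1 works inside mitochondria.

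The animals were C57BL/6 mice, all labelled wild type, and dissected cerebral cortex was taken from each mouse at 6 months of age. They came from 13 lines, each named after a gene, and each line gave 4 females and 4 males. The lines were Rasgef1a, Gsg1l, Ppp1ca, Tbc1d8, Kdm3b, Zswim6, Dach1, Hrk, Morf4l1, Arpp19, Rgs9, Ece2 and Pcdh20. The labels tag the line as a batch, so a line and a batch cannot be told apart. They name no treatment and do not say which mice are related. The deposited mouse names share a code between some mice of a line, and its meaning is not stated. All tests treated the mice as independent, and relatedness was not tested. The p-values set differences against the spread between these mice only. Replicate numbers 1 to 8 below follow the order of deposit within a line, females first, and pair nothing.

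Heat shock proteins bind unfolded or damaged proteins and help them to fold or to be degraded. Inducible members are transcribed when heat shock factor 1 is released from chaperones during heat, fever or other protein stress and binds heat shock elements, which are inverted repeats of a short GAA unit. Constitutive members are made at high levels in unstressed cells, and in neurons they also serve vesicle traffic and the folding of receptors and kinases. From textbook knowledge, Hspa1a, Hspa1b, Dnajb1, Hspb1, Hsph1 and Hsp90aa1 were grouped as inducible, and Hspa8, Hsp90ab1, Dnaja1 and Hspe1 as constitutive.

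Library totals ran from 3.39 M to 33.5 M counted reads (M, megareads), with a median of 28.4 M. Kdm3b replicate 2 was the shallowest, and the next had 23.9 M. In 3 libraries (the libraries labelled Rasgef1a female replicate 3, Rasgef1a male replicate 8 and Rgs9 female replicate 3) the sex-linked transcripts went against the sex label, so the results were also computed without them and without Kdm3b replicate 2. Counts scaled to the TMM-adjusted library total (CPM), summed over 6 pan-neuronal and excitatory neuron markers, ran from 10311 to 11658 over the 104 libraries. Choroid plexus markers ran from 1.15 to 307 and erythroid markers from 0.209 to 2.07. Fewer cells of a type and less RNA per cell cannot be told apart in such tissue.

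The members lie on 7 chromosomes (GRCm38, RefSeq gene bounds). Hspa1a (chr17:34969359-34972156) and Hspa1b (chr17:34956429-34959238) lie close together on the minus strand, and Hsp90ab1 (chr17:45567778-45573261, minus) lies farther along. Hspb1 (chr5:135887919-135889563, plus) and Hsph1 (chr5:149616843-149636498, minus) share another chromosome. The others are Dnajb1 (chr8:83608175-83612653, plus), Hsp90aa1 (chr12:110691036-110696395, minus), Hspa8 (chr9:40801276-40805202, plus), Dnaja1 (chr4:40722468-40734965, plus) and Hspe1 (chr1:55088148-55091317, plus).

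Promoter windows for 7 of the 10 members were at hand from RefSeq on GRCm38.p6, each reaching from 250 bases before to 50 bases after a transcript start. The 150 bases just before the RefSeq start are printed for 4 members, with 30 bases of the Hspe1 window, to show where heat shock element letters lie, 5′ to 3′ along the gene's own strand. The Hspe1 stretch also lies within the RefSeq bounds of Hspd1, its partner gene on the opposite strand. Capitals mark GAANNTTC or TTCNNGAA, the paired arrangements of the GAA unit. Each of them reads the same on both strands.
Hspa1b (chr17:34959239-34959388, minus strand): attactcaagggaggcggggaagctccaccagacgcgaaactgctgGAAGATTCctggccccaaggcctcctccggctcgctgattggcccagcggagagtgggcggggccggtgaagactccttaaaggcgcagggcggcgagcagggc
Hspb1 (chr5:135887769-135887918, plus strand): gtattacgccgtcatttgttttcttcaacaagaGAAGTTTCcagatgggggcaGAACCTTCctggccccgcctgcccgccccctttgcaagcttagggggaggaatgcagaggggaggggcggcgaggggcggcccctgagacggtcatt
Hspe1 (chr1:55088053-55088082, plus strand): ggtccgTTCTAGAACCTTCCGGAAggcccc
Dnaja1 (chr4:40722318-40722467, plus strand): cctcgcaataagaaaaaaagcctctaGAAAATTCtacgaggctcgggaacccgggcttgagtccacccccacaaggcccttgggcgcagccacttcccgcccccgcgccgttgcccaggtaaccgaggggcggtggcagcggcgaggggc
Dnajb1 (chr8:83608025-83608174, plus strand): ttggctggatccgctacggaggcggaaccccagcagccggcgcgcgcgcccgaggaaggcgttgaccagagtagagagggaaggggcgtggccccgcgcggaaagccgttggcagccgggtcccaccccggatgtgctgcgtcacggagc

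GAANNTTC was found in a window of 6 of the 7 members and TTCNNGAA in 2, Hsph1 and Hspe1. The same pair of genes held a match of 3 units in a row, GAANNTTC followed by NNGAA (searched on both strands), which overlaps the shorter matches. Among 27018 genes with a window, 9.04% had GAANNTTC, 9.60% had TTCNNGAA, 16.98% had either and 0.663% had the 3-unit form. With position 0 as the start base, the match of Hspa1b began at -104 and those of Hspb1 at -117 and -97. That of Dnaja1 began at -124 in its first window, and its other windows held none. Those of Hspe1 began at -89, -84 and -79. Those of Hsph1 began at -33, 36 and 41 from its first start, and at -54, 15 and 20 from its second. Hspa1a held the Hspa1b match at the same place, and its window was identical at 296 of 300 bases. Counted from 1 at the window's 5′ end, with the Hspa1a base first, the windows differed at C44T, T47C, T249G and C276T. Both Dnajb1 windows held neither arrangement. A match is a run of letters, not a measured binding site. No window was used here for Hspa8, Hsp90aa1 or Hsp90ab1.

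Levels of different genes were compared by the authors' FPKM, which scale reads to the length of the gene and to the library total. Hsp90ab1, the constitutive Hsp90, was the most abundant member, with an FPKM of 497 at the lowest, 533 at the median and 589 at the highest over 104 libraries. Hspa8, the constitutive Hsp70 that also strips clathrin from vesicles, followed with an FPKM of 194, 225 and 293. Hsp90aa1, the stress-inducible Hsp90, ran at an FPKM of 92.0, 101.4 and 116, and Hsph1, a large Hsp110 that exchanges the nucleotide of Hsp70, at 70.2, 84.7 and 119. The first pair kept apart from each other and from every other member in all libraries, while the ranges of Hsp90aa1 and Hsph1 overlapped.

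Dnajb1, the inducible J-domain partner of Hsp70, had an FPKM of 22.9, 26.99 and 36.1. Hspe1, the small lid of the mitochondrial chaperonin, had 18.3, 21.9 and 25.8, and Dnaja1, a constitutive J-domain protein, 15.1, 17.4 and 19.7. Neighbours in this order overlapped, while the FPKM of Dnajb1 lay above that of Dnaja1 in all libraries. That rank rests on the gene lengths behind the FPKM, 2264 bases for Dnajb1 and 5790 for Dnaja1. Without scaling to length it was reversed, with a mean of 62.4 CPM for Dnajb1 and 100.7 for Dnaja1. The lowest levels belonged to the Hsp70 genes Hspa1a (1.27, 2.03 and 2.82) and Hspa1b (0.927, 1.78 and 3.79) and to the small heat shock protein gene Hspb1 (0.710, 1.40 and 4.22), again with overlapping ranges.

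The low members rested on few reads. Hspb1 had 7 to 111 reads per library, Hspa1b 15 to 291 and Hspa1a 12 to 225, against 4937 to 45798 for Hsp90ab1. Near-identical copies add a further limit, because the length of the reads and the handling of reads that map to several places are not given in the sources used here. Of all stretches of 50 bases in the longest coding transcript (GENCODE vM21), 73.2% of Hspa8 also occurred in transcripts of other genes, mostly the copy Gm15459. The share was 62.3% for Hspa1b and 60.3% for Hspa1a, mostly each other, 58.5% for Hsp90aa1 (mostly Gm12346) and 51.6% for Hspb1 (Hsp25-ps1). It was 36.1% for Hspe1, 18.7% for Dnaja1, 4.49% for Hsp90ab1, 0.407% for Dnajb1 and 0% for Hsph1. How reads were split between these copies is uncertain.

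The inducible and constitutive members differed in how much they varied from mouse to mouse. Spread was taken as the SD of log2 CPM within a line and sex. It was 0.51 for Hspb1, 0.32 for Hspa1b, 0.21 for Hspa1a, 0.16 for Hsph1, 0.13 for Dnajb1 and 0.06 for Hsp90aa1, with a median of 0.19. Among the constitutive members it was 0.12 for Hspa8, 0.10 for Hspe1, 0.06 for Dnaja1 and 0.05 for Hsp90ab1, with a median of 0.08. The median over all tested genes was 0.12. Hsp90aa1 thus lay among the steady members although it was grouped as inducible, and Hspa8 stood highest among the constitutive ones.

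Counting error is part of the SD of the low genes. It alone would give 0.25 for Hspb1, 0.13 for Hspa1b and 0.12 for Hspa1a on the log2 scale, against 0.02 for Hsph1 and 0.01 for Hspa8. With it subtracted as a variance, Hspb1 kept 0.45, Hspa1b 0.30, Hspa1a 0.17 and Hsph1 0.16. Measured against genes of similar abundance (edgeR's dispersion of the gene over its trend), Hspb1 stood at percentile 97.7 of all tested genes. Hspa1b stood at 96.2, Hsph1 at 94.9, Dnajb1 at 89.1, Hspa8 at 86.1 and Hspa1a at 73.9. Hsp90aa1 stood at 37.01, Dnaja1 at 34.9, Hspe1 at 27.3 and Hsp90ab1 at 17.6.

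**Figure D1:**
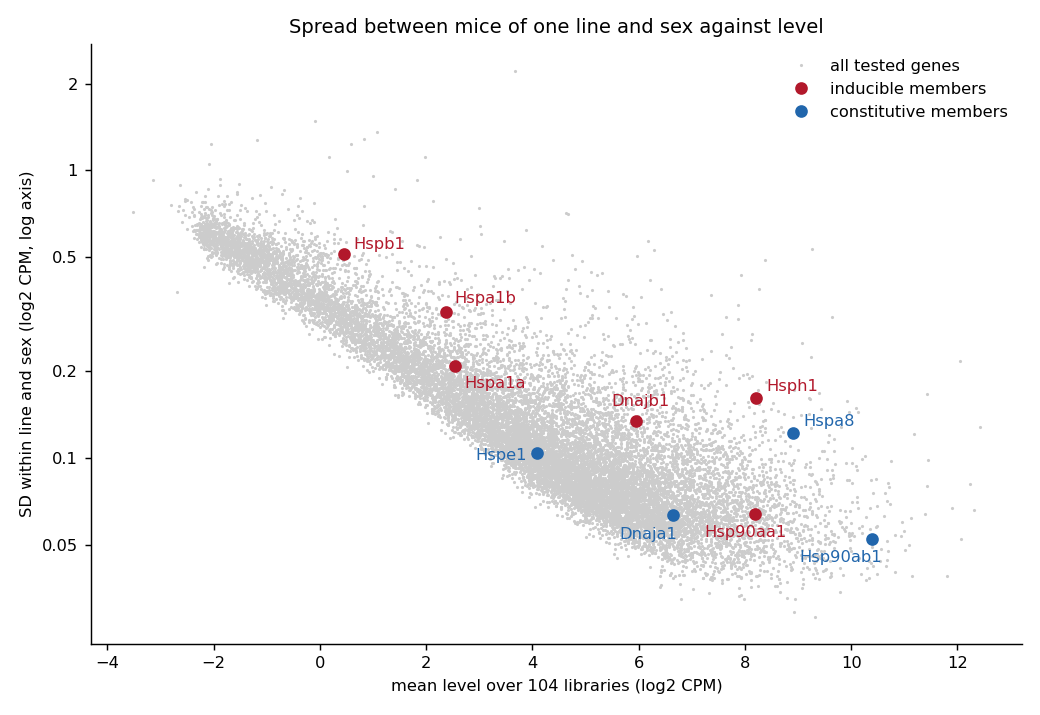
SD of log2 CPM within line and sex (y, log axis) against mean log2 CPM over 104 libraries (x) for all 15723 tested genes (grey), the inducible members (red) and the constitutive members (blue). Hspb1, Hspa1b, Hsph1, Dnajb1 and Hspa8 lie toward the upper edge of the genes at their level, while Hsp90aa1, Hsp90ab1, Dnaja1 and Hspe1 lie low.

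Each of 3 families offered an inducible and a constitutive member to compare in the same libraries. In the Hsp70 family the SD of Hspa1b was 2.64 times that of Hspa8 (two-sided permutation test over line-and-sex groups, p = 1e-05, adjusted p = 3e-05 over 3 pairs). This is the smallest p that 100000 permutations can give. In the J-domain family the SD of Dnajb1 was 2.13 times that of Dnaja1 (permutation p = 6e-05, adjusted p = 9e-05). In the Hsp90 family the SD of Hsp90aa1 was 1.22 times that of Hsp90ab1 (permutation p = 0.00923, adjusted p = 0.00923). The other inducible Hsp70 gene, Hspa1a, was not among the pairs tested. Its SD was 1.71 times that of Hspa8, while against genes of similar abundance it stood below Hspa8, at percentile 73.9 against 86.1. Counting error enters these ratios, and it is larger for the inducible gene of each pair.

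Spread between mice of the same line and sex made up 61.5% (Dnaja1) to 89.5% (Hspe1) of the variance of log2 CPM. With 26 line-and-sex groups that did not differ, this share would be about 75.7%. In the line Rasgef1a, for example, Hsph1 ran from 262 CPM at the lowest through a median of 279 to 408 at the highest. Hspa1b ran from 4.21 through 5.11 to 10.8 CPM in the same 8 mice. Rasgef1a held both the lowest and the highest Hsph1 deviation of the series, in replicates 2 and 5.

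**Figure D2:**
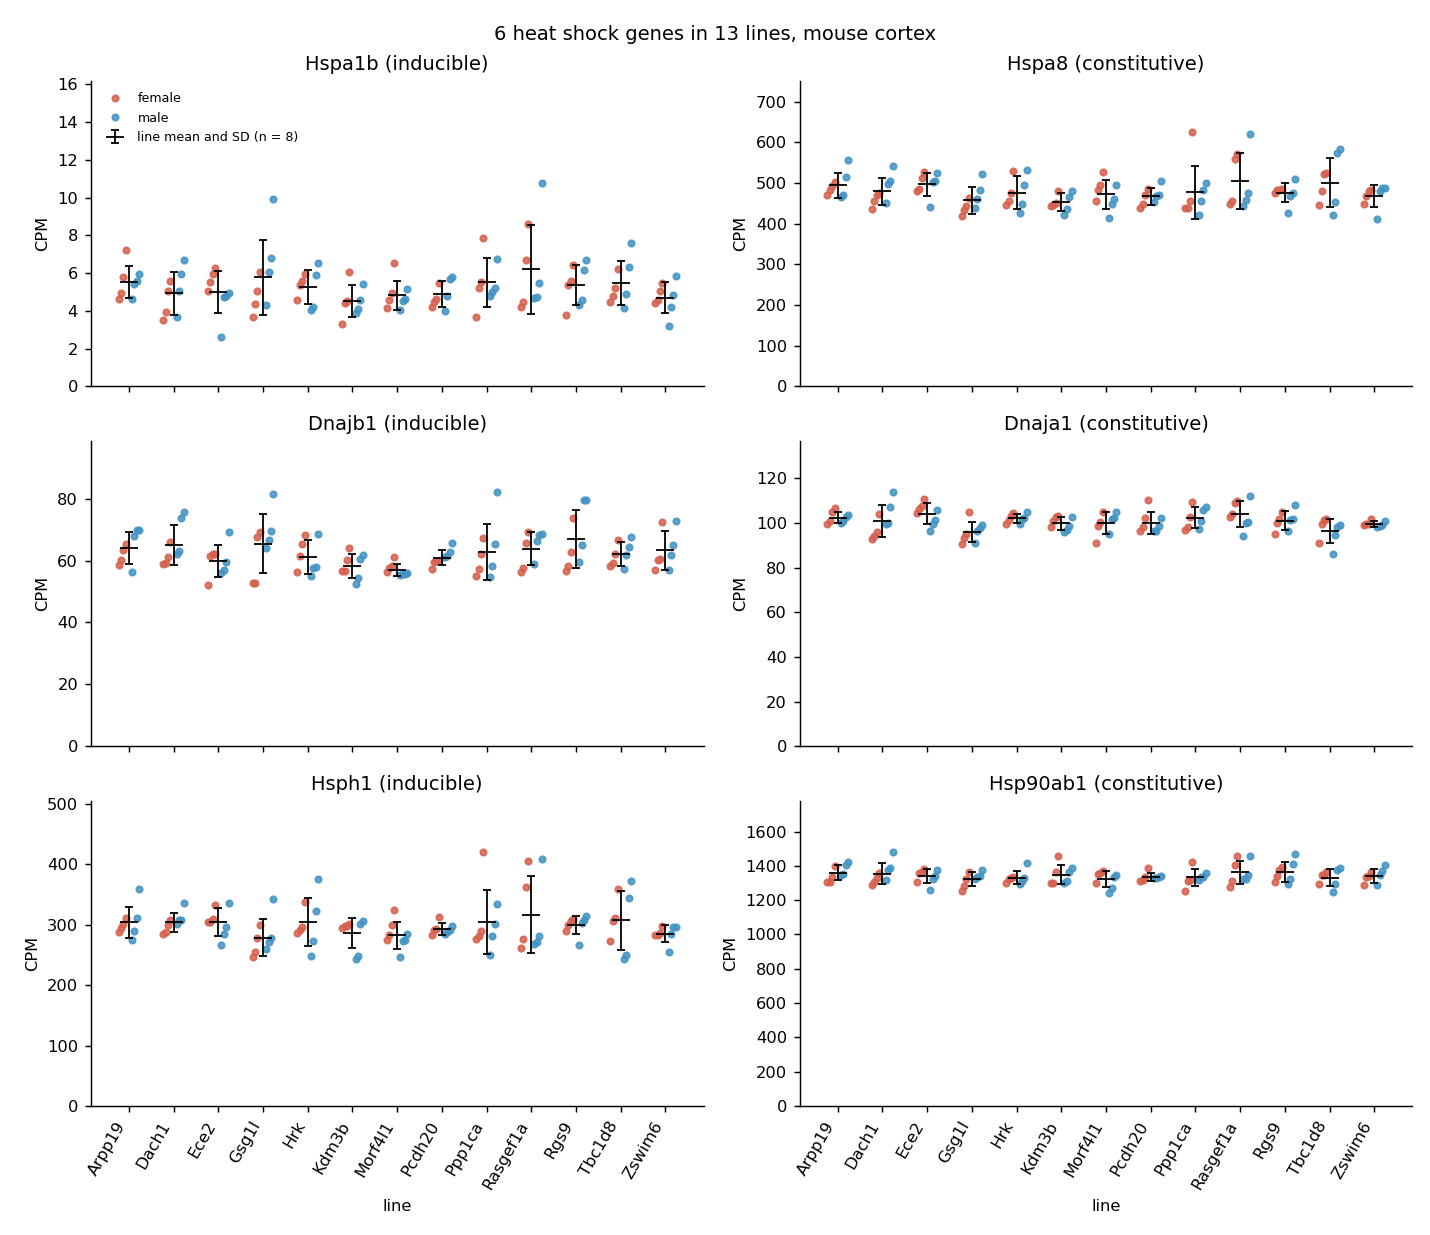
CPM of 6 members in each of 104 libraries (points, females red and males blue) by line, with the line mean and SD in black (n = 8), each panel starting at 0. Inducible members are on the left and constitutive members on the right. In Rasgef1a, Hspa1b runs from 4.21 to 10.8 CPM.

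Members tended to rise and fall together from mouse to mouse. For each library the deviation of a gene was its log2 CPM less the mean of its line and sex, so that differences between lines and sexes are removed. All 45 pairs of members had a positive Pearson r over 104 libraries, with a median of 0.33. By permutation within line and sex, 30 of the 45 passed an adjusted p of 0.05, which came to 12 of 15 inducible pairs, 14 of 24 mixed pairs and 4 of 6 constitutive pairs. Deviations of all genes in a library share its RNA, its depth and its scaling factor. Over all other tested genes the r with a member had a median between -0.02 and 0.004, and 5% of genes exceeded values between 0.28 (Hspa1a) and 0.50 (Hsph1). Of the 9 other members, 6 exceeded this value for Hsph1 and Hspa8, 5 for Hspa1a and Hspa1b, and 4 for Hsp90aa1, Hsp90ab1 and Dnaja1. Only 3 did for Hspb1 and Hspe1, and 2 for Dnajb1. The share of all gene pairs that would pass the permutation test was not computed.

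The closest pair was Hsph1 with Hspa8, an exchange factor and the Hsp70 it acts on. Its Pearson r was 0.90 and its Spearman rho 0.86 (permutation p = 1e-05 for both, adjusted p = 3.21e-05 for r over 45 pairs). It was 0.87 without the 2 libraries farthest from the median and 0.89 on plate 1 alone. Within single lines the r of this pair ran from 0.33 to 0.98 with a median of 0.91, positive in 13 of 13 lines, and it was 0.87 in females and 0.92 in males.

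The pair of Hsp90 genes followed, with Hsp90aa1 and Hsp90ab1 at r = 0.80 and rho = 0.80 (permutation p = 1e-05 for both, adjusted p = 3.21e-05 for r). Without the 2 farthest libraries r was 0.78, on plate 1 it was 0.79, and within lines it ran from 0.62 to 0.96. Of the Hsp90aa1 stretches, 58.5% also occurred in other genes and 51.5% in Gm12346, while 4.49% of Hsp90ab1 stretches occurred in any other gene. The share between Hsp90aa1 and Hsp90ab1 alone is not given here. The part of shared reads in the r of this pair was not tested. Hspa8 with Hsp90ab1 reached r = 0.72 and rho = 0.70, and Hspa1b with Hspb1 r = 0.72 and rho = 0.64 (permutation p = 1e-05 for each, adjusted p = 3.21e-05 for r). The latter was 0.69 without the 2 farthest libraries, 0.71 on plate 1, and positive in 13 of 13 lines (0.16 to 0.95).

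Hspa1a and Hspa1b, which share most of their transcript and promoter letters, had a lower r of 0.53 and a rho of 0.50 (permutation p = 1e-05 and 3e-05, adjusted p = 3.21e-05 for r). It was 0.52 without the 2 farthest libraries and 0.53 on plate 1, and within lines it ran from -0.06 to 0.86. Counting error at about 150 reads per library bears on both genes of this pair.

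Hspe1 passed with the fewest other members, 3 of 9 (Hsph1, Hspa1a and Hspa8), and its median r with the 9 was the lowest, 0.18. Hsph1 and Hspa8 passed with 9 of 9, Dnajb1 with 7, Hspa1a and Hspb1 with 6, and the remaining members with 5. The count above the 95th percentile of r over all other tested genes gave another order. It was 6 for Hsph1 and Hspa8, 5 for Hspa1a and Hspa1b, and 4 for Hsp90aa1, Hsp90ab1 and Dnaja1. It was 3 for Hspb1 and Hspe1, and 2 for Dnajb1. The lowest r values were those of Hsp90aa1 with Hspe1 (0.02, permutation p = 0.854), Dnajb1 with Hspe1 (0.03, permutation p = 0.809) and Hspa1a with Dnaja1 (0.05, permutation p = 0.659).

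**Figure D3:**
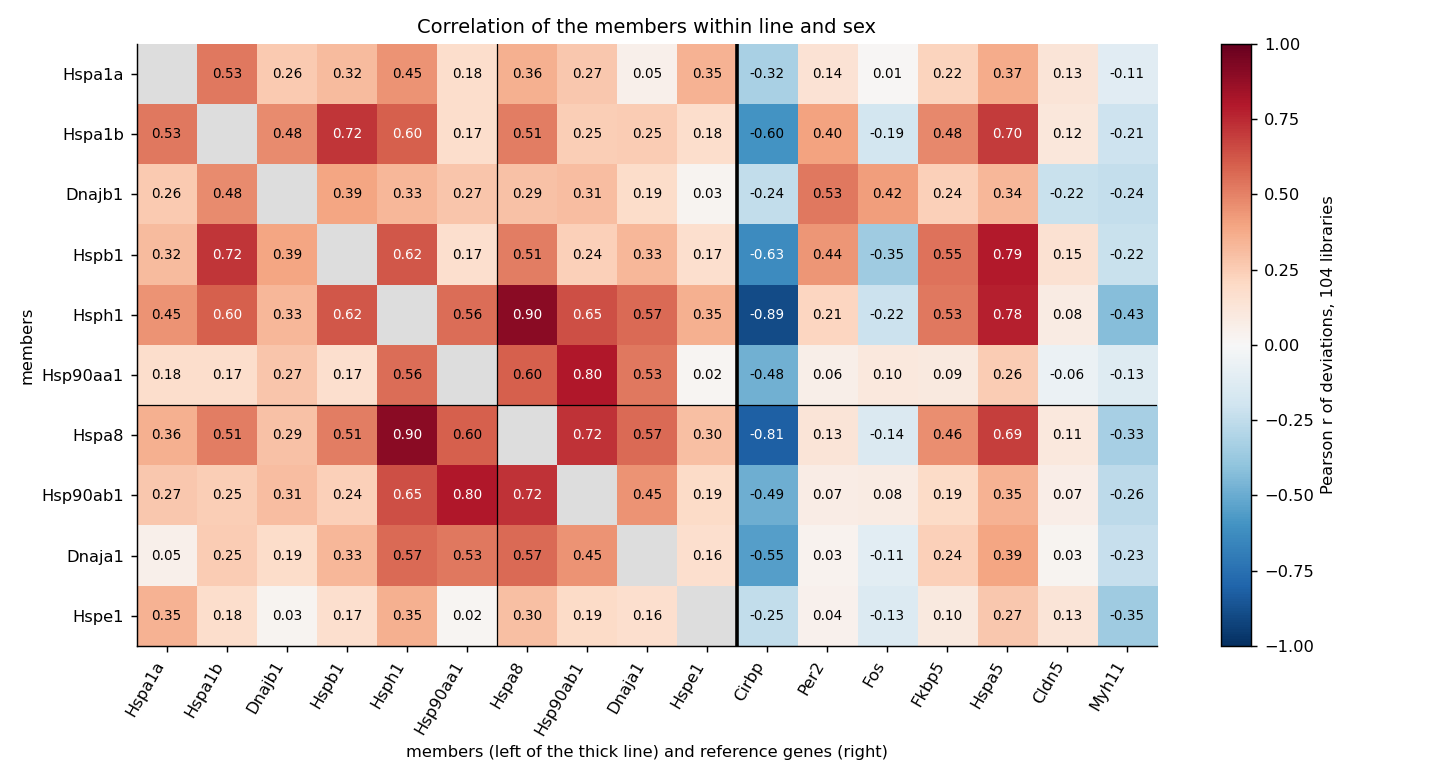
Pearson r of deviations from line-and-sex means over 104 libraries, each number printed in its square, among the 10 members (left of the thick line) and with 7 reference genes (right). Red is positive and blue negative, and the darkest squares are Hsph1 with Hspa8 at 0.90 and Hsph1 with Cirbp at -0.89.

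Of the 7 reference genes set against the members, Cirbp and Hspa5 followed them most closely, and 29 of the 70 pairs passed (permutation within line and sex, adjusted over 70). The share of all genes that would pass with a member was not computed. Some pairs that passed lay within the 5th to 95th percentile of r of their member over all other tested genes. Cirbp encodes a cold-inducible RNA-binding protein, whose RNA is known to rise when cells are cooled slightly. Its level ran from 39.1 CPM at the lowest through a median of 64.8 to 86.4 at the highest. Every member had a negative r with Cirbp. It was -0.89 for Hsph1, -0.81 for Hspa8, -0.63 for Hspb1, -0.60 for Hspa1b, -0.55 for Dnaja1, -0.49 for Hsp90ab1, -0.48 for Hsp90aa1 and -0.32 for Hspa1a, and those 8 passed, with a Spearman rho between -0.88 and -0.28. Dnajb1 (-0.24, permutation p = 0.0344, adjusted p = 0.0709) and Hspe1 (-0.25, permutation p = 0.0283, adjusted p = 0.0618) did not. The pair with Hspe1 passed without the shallowest library, Kdm3b replicate 2 (-0.27, permutation, adjusted p = 0.0402).

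For Hsph1 and Cirbp the Spearman rho was -0.88 (permutation p = 1e-05 for r and rho, adjusted p = 7e-05 for r). The r was -0.86 without the 2 farthest libraries and -0.89 on plate 1. Within lines it ran from -0.99 to -0.20 with a median of -0.87, negative in 13 of 13 lines, and it was -0.90 in females and -0.89 in males. No tested gene had a lower r with Hsph1 or with Hspa8 than Cirbp. Rbm3, the other cold-inducible gene listed, followed the inducible members less closely. Its r with their mean deviation was -0.18, against -0.74 for Cirbp. The value of Rbm3 lay inside the band from -0.45 to 0.47 that held most tested genes.

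**Figure D4:**
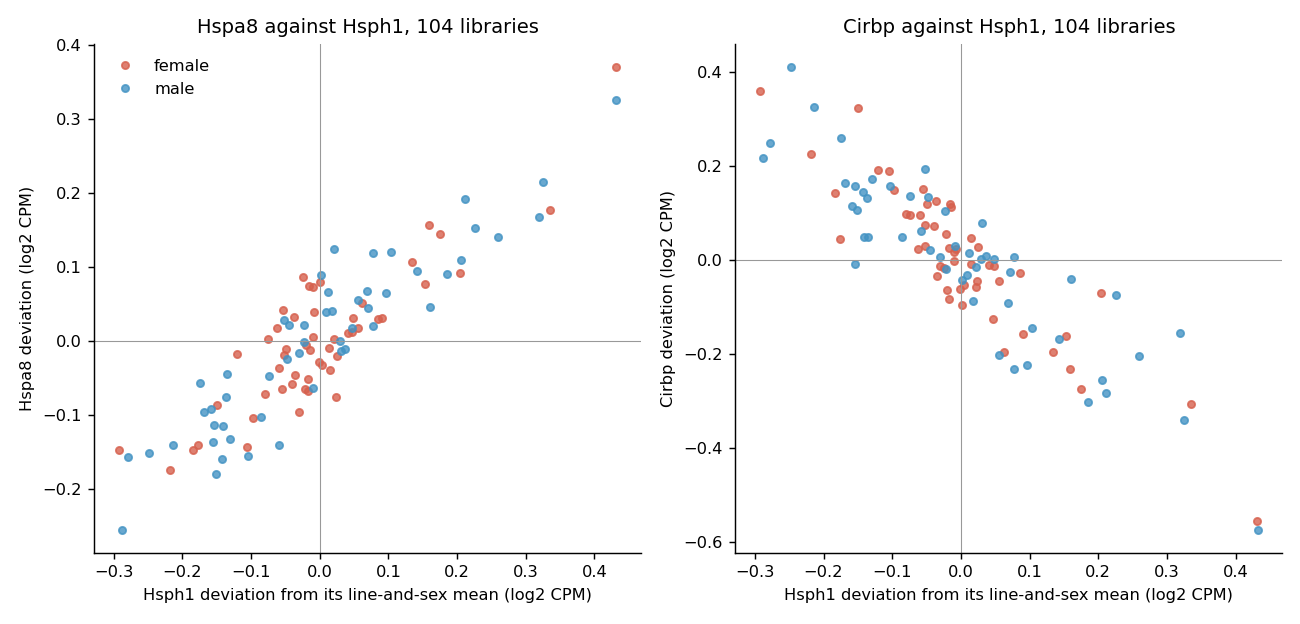
Deviation of Hspa8 (left) and of Cirbp (right) from its line-and-sex mean against that of Hsph1, all in log2 CPM, 1 point per library, females red and males blue. Hspa8 rises with Hsph1 (r = 0.90) and Cirbp falls (r = -0.89) over the whole range in both sexes.

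Hspa5, the Hsp70 of the endoplasmic reticulum, rose with Hspb1 (r = 0.79, rho = 0.73), Hsph1 (0.78, 0.70), Hspa1b (0.70, 0.64) and Hspa8 (0.69, 0.58), each with a permutation p of 1e-05 and an adjusted p of 7e-05 for r. Without the 2 farthest libraries these came to 0.75, 0.71, 0.66 and 0.58, and on plate 1 to 0.80, 0.78, 0.71 and 0.68. Its r with Hsp90aa1 was 0.26 (permutation p = 0.0719, adjusted p = 0.123). Fkbp5, a glucocorticoid-induced co-chaperone of steroid receptors, rose with Hspb1 (r = 0.55, rho = 0.53, permutation p = 1e-05, adjusted p = 7e-05) and with Hsph1 (r = 0.53, rho = 0.43, permutation p = 9e-05, adjusted p = 0.000485). The highest Fkbp5 level, 62.6 CPM, belonged to Rasgef1a replicate 5, and the r with Hsph1 was 0.43 without the 2 libraries farthest for Hsph1.

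Dnajb1 also passed with Hspa5 (r = 0.34, rho = 0.33, permutation p = 0.00219, adjusted p = 0.00613) and Fkbp5 (r = 0.24, rho = 0.25, permutation p = 0.0157, adjusted p = 0.0380). Its r was 0.53 with the clock gene Per2 (rho = 0.51) and 0.42 with Fos (rho = 0.42), an immediate early gene of neuronal activity (permutation p = 2e-05 and adjusted p = 0.000117 for each r). Without the 2 farthest libraries these were 0.50 and 0.41, and on plate 1 0.50 and 0.39. Hspb1 went with Per2 (r = 0.44, rho = 0.47, permutation p = 0.00012, adjusted p = 0.00056) but against Fos (r = -0.35, rho = -0.34, permutation p = 0.00069, adjusted p = 0.00242). Of the 10 members, 3 passed with Per2 (the third was Hspa1b at 0.40) and 2 with Fos. Over all other tested genes the 5th to 95th percentile of r was -0.32 to 0.35 for Dnajb1. It was -0.47 to 0.48 for Hspb1 and -0.42 to 0.43 for Hspa1b. Dnajb1 with Per2 and with Fos lay outside its range. Dnajb1 with Hspa5 and Fkbp5, Hspb1 with Per2 and Fos, and Hspa1b with Per2 lay inside theirs.

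No pair with the endothelial gene Cldn5 passed (lowest permutation p = 0.0515, for Dnajb1). Over the 6 endothelial markers the r with the mean deviation of the inducible members ran from -0.46 (Slco1a4) to 0.49 (Ly6c1), with a median of 0.24 and 5 of 6 positive. Myh11, a smooth muscle gene of vessel walls, was negatively related to Hsph1 (r = -0.43), Hspe1 (-0.35) and Hspa8 (-0.33), and those 3 pairs passed (permutation, adjusted p = 0.00184, 0.00328 and 0.0105). Their rho values were -0.39, -0.35 and -0.32, and r without the 2 farthest libraries was -0.45, -0.30 and -0.34. For Hsph1 and Hspa8 the r with Myh11 lay within the 5th to 95th percentile over all other tested genes. These ranges were -0.49 to 0.50 and -0.45 to 0.45. For Hspe1 it lay outside the range of -0.28 to 0.30. Over the 6 mural markers the r with the inducible mean ran from -0.44 (Pdgfrb) to 0.05 (Rgs5), with a median of -0.04 and 2 of 6 positive. The part of vessel cells in the spread of the members was not tested.

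A single mouse, picked for its extreme values, shows the shared movement of some members. In Ppp1ca replicate 4, a female, Hspa8 reached 625 CPM, the highest of the series, against a median of 475. Hsph1 reached 421 CPM, also the highest, against a median of 295, and Cirbp was at 39.1, its lowest. Hspb1 was 2.86 CPM there against a median of 1.26, while Dnajb1, at 62.0 CPM, was close to its median of 61.3. The mean deviation of the inducible members, in units of each gene's own SD, was highest in Rasgef1a replicates 4 (1.88) and 5 (1.72), then in Ppp1ca replicate 4 (1.60), Gsg1l replicate 6 (1.43) and Tbc1d8 replicate 5 (1.39). It was lowest in Rasgef1a replicate 2 (-1.28), Zswim6 replicate 5 (-1.22), Rasgef1a replicate 1 (-1.17), Tbc1d8 replicate 8 (-1.05) and Gsg1l replicate 2 (-1.01). Both sexes were found at both ends. Over 104 libraries the inducible mean had an r of 0.69 with the constitutive mean and of 0.04 with the log2 library total.

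Other chaperones followed the inducible members to unequal degrees. The likeness of a gene was its Pearson r with the mean deviation of the 6 inducible members over 104 libraries, which over all tested genes had a median of -0.01 and a 5th to 95th percentile of -0.45 to 0.47. Among 31 cytosolic co-chaperones and other heat shock genes the median was 0.38, and 27 of 31 were positive. The highest were Chordc1 (0.73), an Hsp90 partner, Stip1 (0.70), which joins Hsp70 to Hsp90, Dnaja4 (0.68) and Dnajb5 (0.66). The classical heat shock targets Bag3 (0.39) and Hspb8 (0.45) were within the middle 90% of all genes, and Hspb6 (-0.21) and Ubb (-0.19) were lowest.

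The endoplasmic reticulum chaperones had the highest median of any list, 0.71, and 14 of 14 were positive, from Dnajb9 (0.09) to Pdia3 (0.78). The 8 subunits of the CCT chaperonin, which folds actin and tubulin, had a median of 0.41 and all were positive. The mitochondrial chaperones had a median of -0.01, and the highest was Hspd1 at 0.57. Hspd1 and Hspe1 are the chaperonin and lid of one mitochondrial machine, and their r with each other was 0.38 (rho = 0.31, permutation p = 0.00126, adjusted p = 0.00126 over 6 pairs that were chosen after values had been seen). It was 0.42 without the 2 farthest libraries and 0.39 on plate 1.

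The list of 5 heat shock factor genes had a median of 0.04. Hsf1, the main activator of the response, had 0.47 at a mean of 40.4 CPM, about the 95th percentile of all tested genes (0.47). Hsf2 had 0.14, Hsf5 0.04, Hsbp1 -0.15 and Hsf4 -0.34. The 9 glucocorticoid-responsive genes were all positive with a median of 0.32, led by Cdkn1a (0.66). The immediate early (0.02), circadian clock (0.07) and Atf4 target (-0.004) lists had medians near that of all genes. Among cell type markers, 0 of 5 oligodendrocyte genes were positive (median -0.31), and the 5 microglial markers had a median of -0.25. The pan-neuronal and excitatory markers had a median of 0.11. Oligodendrocyte markers summed to 1295 to 2396 CPM across libraries, and their part in the spread of the members was not tested.

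**Figure D5:**
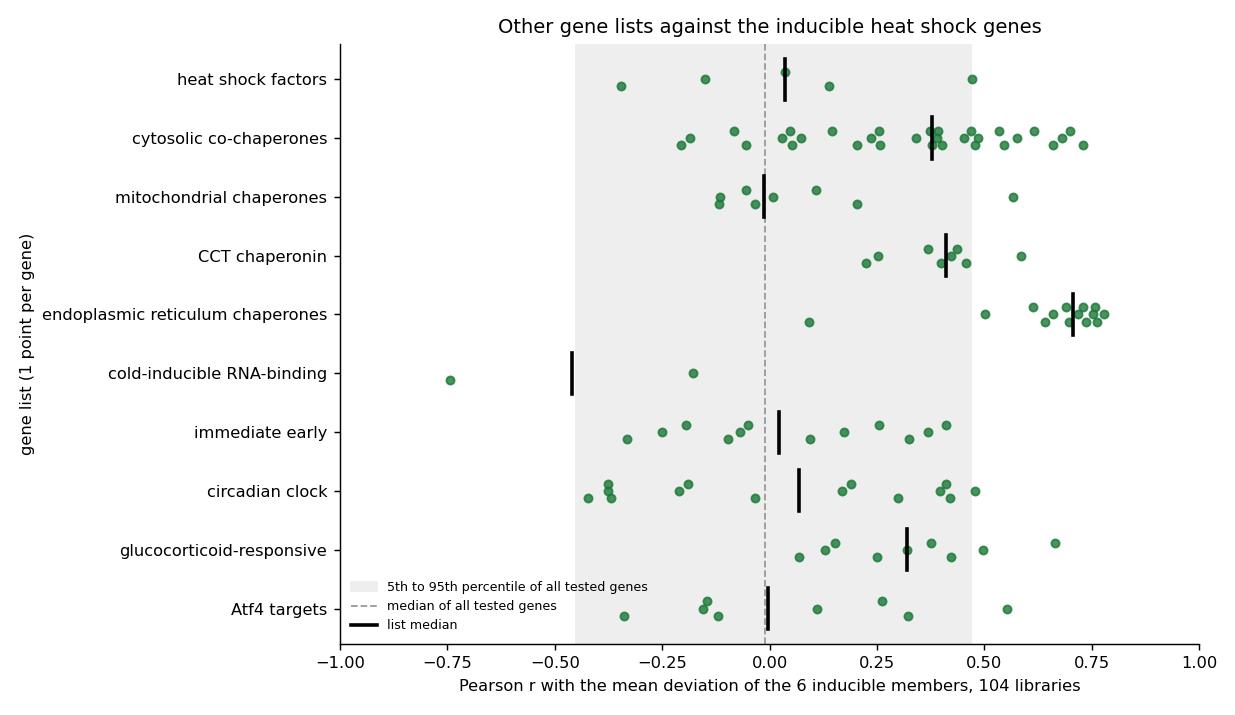
Pearson r of each gene (points) of 10 lists with the mean deviation of the 6 inducible members over 104 libraries. Black bars are list medians, the dashed line is the median of all tested genes and the grey band holds their 5th to 95th percentile. The endoplasmic reticulum chaperones lie farthest to the right, with a median of 0.71.

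Outside the lists, the genes most like the inducible members were Zfp180 (0.79), Ankrd50 (0.75), Cx3cl1 (0.75), Slc5a3 (0.75), Enc1 (0.75), Egr3 (0.75), Pdp1 (0.74), P4ha1 (0.74), Setd8 (0.73) and Scg2 (0.73). The least like were Cep83os (-0.78), Slc9a8 (-0.77), Chid1 (-0.73), Nprl3 (-0.72) and Zfp46 (-0.72). Cx3cl1 encodes the neuronal chemokine fractalkine, and Slc5a3 a transporter of the osmolyte myo-inositol. Further neighbours were picked after their values had been seen. Hsph1 was most like the endoplasmic reticulum chaperones Hsp90b1 (0.93) and Calr (0.91), and Hspa8 most like Hsph1 and Stip1 (0.88). Hspb1 was most like the endoplasmic reticulum genes Creld2 (0.81) and Pdia6 (0.80), and Dnajb1 most like the survival factor Mcl1 (0.73), Arid5a (0.71) and the immediate early gene Fosb (0.70). Hspe1 was most like Cox6b1 (0.64) and Chchd2 (0.62), which both encode mitochondrial proteins.

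No member was called between the 13 lines, where 9.6% of all tested genes were (edgeR's quasi-likelihood F-test with sex as covariate, adjusted p under 0.05). At an unadjusted p of 0.05, 3 members passed: Dnaja1 (adjusted p = 0.0853), Dnajb1 (0.175) and Hspb1 (0.198). By this p, Hspb1 ranked 3494 of 15723 tested genes, so at least as many genes passed the same cut. DESeq2 called 1 member, Dnaja1 (adjusted p = 0.0453), where it called 13.2% of genes, and edgeR called the same gene with the line Dach1 left out (adjusted p = 0.0293). Line means of Hspb1 lay farthest apart, from 1.09 ± 0.238 CPM in Morf4l1 to 1.96 ± 1.103 in Rasgef1a (SD, n = 8), a ratio of 1.81. Those of Hspa1b ran from 4.53 ± 0.861 in Kdm3b to 6.21 ± 2.36 in Rasgef1a, and those of Hsp90ab1 only from 1322 ± 45.2 in Morf4l1 to 1365 ± 59.1 in Rgs9. In each of the 3 cases the highest and lowest line overlapped within 1 SD.

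Set against the mean of the other 12 lines, 1 member was called in 1 line, where 1.79% of all tests over the 13 lines were (edgeR). Dnaja1 in Gsg1l ran from 90.8 CPM through a median of 95.8 to 105 in 8 mice, and in the other 96 mice from 86.2 through 101 to 114, so the groups overlapped. The difference was -0.07 ± 0.02 on the log2 scale (SE, edgeR's quasi-likelihood test, adjusted p = 0.0350). In that line 10.4% of all tested genes were called, and 5.58% were lower. The call was lost on plate 1 alone (-0.07, edgeR adjusted p = 0.0513), with no filter (-0.07, adjusted p = 0.0510) and with limma on log2(FPKM + 1) and log2(FPKM + 0.1) (both -0.06, adjusted p = 0.0801 and 0.0810). In Tbc1d8 the same gene had -0.07 ± 0.02 with an adjusted p of 0.0597.

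The 31 co-chaperones held 7 genes that differed between lines, where 9.6% of all tested genes did, among them Dnaja2 (adjusted p = 2.945e-05), Sugt1 (0.000708) and Hspa4 (0.003775), by edgeR's F-test. Of the mitochondrial chaperones 2 of 8 did, Hspa9 (adjusted p = 1.29e-06) and Lonp1 (0.000399). In Gsg1l, Dnaja2 fell by 0.13 ± 0.02 and Hspa4 by 0.13 ± 0.03 on the log2 scale (SE, edgeR, adjusted p = 0.000143 and 0.000397).

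No member was called between females and males either, where edgeR called 8.57% of all tested genes and DESeq2, which called no member, 9.05%. In edgeR 2 members, Dnajb1 and Hsp90aa1, had an unadjusted p under 0.05. Hsp90aa1 ranked 2929 of 15723 tested genes by this p, so at least as many genes passed that cut. Dnajb1 ran from 52.1 through 60.1 to 73.9 CPM in 52 females and from 52.4 through 62.5 to 82.2 in 52 males. Its female minus male difference was -0.06 ± 0.03 (log2, SE, edgeR adjusted p = 0.117), lower in females in 10 of 13 lines. Hsp90aa1 had 0.03 ± 0.01 (adjusted p = 0.167), higher in females in 9 of 13 lines. The 95% interval of the sex difference was narrowest for Hsp90ab1, from -0.03 to 0.01, and widest for Hspb1, from -0.20 to 0.21.

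Around the members, both cold-inducible genes were lower in females, with a female minus male difference of -0.13 ± 0.04 for Cirbp (log2, SE, edgeR adjusted p = 0.0109) and of -0.11 ± 0.02 for Rbm3 (adjusted p = 0.00114). Of 31 co-chaperones 5 differed between sexes, where 8.57% of all tested genes did. Of these, 3 were higher in females (Bag1, Hspa4 and Hspa4l, each by 0.05) and 2 lower (Stub1 at -0.04 and Unc45a at -0.07). Hsf4 was lower in females, at -0.12 ± 0.02 (edgeR adjusted p = 2.77e-05), and the mitochondrial Hsp90 Trap1 was higher by 0.05 ± 0.01 (adjusted p = 0.000242).

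The sex difference of no member was called as differing between lines, where 0.0382% of genes were and 0 members had an unadjusted p under 0.05 (edgeR F-test, 12 degrees of freedom). Between the 8 libraries on plate 2 and the 96 on plate 1 no member was called either, where 0.242% of genes were (edgeR). Hspa1a (0.21 ± 0.07 higher on plate 2, adjusted p = 0.181) and Hspe1 (0.08 ± 0.04, adjusted p = 0.392) were the 2 members with an unadjusted p under 0.05. Hspe1 ranked 1921 of 15723 tested genes by this p, so at least as many genes passed that cut. The comparison of plates and that of sex differences between lines were not run with DESeq2.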

How the data were processed

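Cortex RNA of 104 mice was sequenced from Illumina TruSeq stranded libraries, per the labels' protocols. The deposited tables hold whole read counts per RefSeq gene and the authors' FPKM values. The submitters' processing notes name the builds mm10 and GRCm38, the aligner STAR (2.7.3a) and the counter HTSeq (0.10.0). The strand setting and the handling of multiply mapped reads are not given in the sources used here. Tables counted on Ensembl genes were not used here.

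The members and gene lists were chosen with earlier results of these data known. Counts were scaled by TMM, filtered over line and sex with filterByExpr and tested with edgeR 4.0.16 (quasi-likelihood, line and sex in the model, Benjamini-Hochberg over 15723 genes, called at an adjusted p under 0.05). DESeq2 1.42.0 and limma 3.58.1 on log2 FPKM served as alternatives, in R 4.3.3. Levels between genes were compared by the deposited FPKM. CPM and log2 CPM (prior count 2) came from the TMM-scaled counts. Permutation tests used 100000 draws in Python 3.11.15 with numpy 2.4.6 and scipy 1.17.1, and intervals are 95% with 90 degrees of freedom. The test of SD ratios was planned to swap genes within single libraries. It was changed to swap all libraries of a line and sex together, because on simulated data the first form called too many unchanged pairs.

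Named genes were all members, up to 4 genes per list with the smallest p in a comparison, and the genes with the highest and lowest likeness to the inducible mean. List genes named for their likeness alone were chosen after values were seen. On simulated counts, edgeR recovered 80% of 100 genes changed 1.1-fold between sexes and 99% of those changed 1.25-fold, among 15642 genes. For Tbc1d8 against the other lines it recovered 59% and 92%, among 15641 genes. The changed genes were drawn only from those above a floor on expected reads, and recovery for the members alone was not computed. The variation between mice that edgeR fitted was 33.1% of the level for Hspb1 and 20.5% for Hspa1b. Its median over all tested genes was 6.64%, so the quoted recovery does not carry over to these 2 members. All 364 pairs of libraries of a line differed by more than counting noise (chi-square per degree of freedom 2.44 to 27.4).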

Additional observations from a re-analysis of the deposited data

Results flagged for a closer look

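Of 130 groups of 8 mice (10 members in 13 lines), 16 held a mouse that stood apart from the other 7 by Dixon's test, where chance flags about 1 in 20 groups. That rate holds for independent groups of normal values. Here the members vary together and each group mixes both sexes, so an excess over chance was not tested. Among the low inducible genes, Hspa1a was 7.66 CPM in Ece2 replicate 3, where the next mouse had 5.78. Hspa1b was 2.61 CPM in Ece2 replicate 5, below a next value of 4.72, and 6.52 in Morf4l1 replicate 1, above 5.18. Hspb1 was 3.82 CPM in Gsg1l replicate 6 (next 1.68), 2.86 in Ppp1ca replicate 4 (next 1.69) and 1.67 in Zswim6 replicate 2 (next 1.19).

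Dnajb1 was 82.2 CPM in Ppp1ca replicate 7, where the next mouse had 67.1. Hsph1 was high in Arpp19 replicate 8 (359.5 CPM, next 311), Dach1 replicate 5 (336, next 308) and Pcdh20 replicate 1 (313, next 297), and low in Zswim6 replicate 5 (254, next 283). Hspa8 was 625 CPM in Ppp1ca replicate 4, where the next mouse had 500.5.

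Hsp90ab1 was 1419 CPM in Hrk replicate 5 (next 1333) and 1386 in Pcdh20 replicate 1 (next 1339). Dnaja1 was 110.5 CPM in Pcdh20 replicate 1 (next 102). Hspe1 was 14.5 CPM in Morf4l1 replicate 8, below a next value of 16.4. Pcdh20 replicate 1 was thus set apart for 3 members and Ppp1ca replicate 4 for 2.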

How the results depend on the processing

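Counts of members called between lines moved from 0 to 1 with DESeq2 and to 1 without the line Dach1. Counts of members called in one line against the other 12 moved from 1 to 0 with no filter, 0 with limma on log2(FPKM + 1), 0 with limma on log2(FPKM + 0.1) and 0 on plate 1 only, and to 2 with a stricter filter. The other 94 counts stayed within 1.5 times their main value. Among them, member pairs passing on deviations numbered 28 to 31 (30 in the main analysis), on log2 CPM 34 to 37 (35) and reference gene pairs 27 to 31 (29), with 30 of the latter without the libraries that go against the sex label. Of single results, 1712 kept their direction and side of the threshold, 20 gained and 20 lost it. A further 30 changed sign, of which 0 were past the threshold before or after. These were female minus male differences (log2) of Hspa1a (0.015 on plate 1; 0.0011, 0.0044, 0.013, 0.0054 and 0.00096 without Arpp19, Dach1, Gsg1l, Kdm3b and Pcdh20), Hspa1b (0.021 without Gsg1l), Hspa8 (0.0051 without Dach1, 0.0047 without Gsg1l) and Hspb1 (-0.014 without the libraries against the sex label; -0.023, -0.040, -0.0016, -0.025, -0.039 and -0.0073 without Hrk, Kdm3b, Morf4l1, Ppp1ca, Rasgef1a and Zswim6). The others were r values. On log2(FPKM + 1) they were -0.0106 (log2 values) and -0.011 (deviations) for Hsp90aa1 with Hspe1, and -0.015, -0.014 and -0.034 for Per2 with Hsp90aa1, Hsp90ab1 and Dnaja1. Without the 2 farthest libraries they were -0.00021 for Hsp90aa1 with Hspe1, -0.039 for Hspa1a with Fos, -0.042 and -0.048 for Per2 with Hsp90aa1 and Hspe1, and -0.014 for Hsp90ab1 with Cldn5. On plate 1 they were -0.050 for Hspa1a with Fos and -0.025 for Dnaja1 with Per2, and without the shallowest library -0.0019 for Dnajb1 with Hspe1 and -0.0061 for Hspa1a with Fos. The cause of these changes was not tested. The 3 SD ratios kept their direction and call under 21 of 21 alternatives. The sample titles carry other numbers, each shared by a female and a male of a line. Over these 52 pairs the r of deviations over genes ran from -0.244 to 0.241 with a median of 0.017, and 8 exceeded 0.1. These values cannot decide whether the title numbers pair mice, and the main tests did not use them. A replicate block by title number left 0 members called between sexes. Depth limits Hspb1 most, at a median of 35 reads per library.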
